A study of Homo sapiens with 12 samples.

Results

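The change in 5-hydroxymethylcytosine (5hmC) was followed gene by gene as HL-60 cells, a human myeloid leukemia line, were differentiated with dimethyl sulfoxide (DMSO). A gene was taken as every 5hmC-enriched region that overlapped it or lay up to 5000 bases before its start, and the raw read counts of those regions were added up under its symbol. This gave 20404 gene symbols, built from 172597 of the 327931 regions with complete counts, and 14406 of them had 3 or more regions and were ranked. The rule used position and names, and no measured change chose a gene. The regions themselves came from the submitters' processing as enriched for 5hmC. Which genes had 3 or more regions therefore depends on measured signal. Of the series' 12 libraries, the 6 made by capturing 5hmC were used (hydroxymethylated DNA immunoprecipitation followed by sequencing, hMeDIP). The other 6 captured 5-methylcytosine (5mC).

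The undifferentiated group was 3 replicates of HL-60 cells in plain growth medium, sorted as live cells without surface CD11b. The differentiated group was 3 replicates kept for 7 days in 1.5% DMSO (211 mM) and sorted as live cells with CD11b, an integrin chain of mature myeloid cells. All 6 preparations came from 1 cell line, so p-values measure the spread between cultures of that line. Because both states were sorted on CD11b, differentiated cells that stayed CD11b-negative were left out by design. An hMeDIP library holds DNA and no transcripts, so the labelled cell identity could not be checked against expressed markers.

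5hmC is made from 5mC by the TET dioxygenases and is an intermediate of DNA demethylation that also persists as a mark of its own. In many tissues it lies over the bodies of active genes and at enhancers, and it is scarce at the centres of CpG islands of active promoters. Loss of TET activity is common in myeloid leukemias. The value given for a gene is its level in CPM, read counts brought to a common total of reads in genes by the trimmed mean of M-values (TMM). Changes are log2 fold changes of differentiated over undifferentiated.

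The sequences before the starts of 5 genes are shown because the results return to regions near those starts. SLITRK3 is among the largest rises, and MED18 and GNAT1 are among the largest falls. ZNF660 is shown for a promoter that moved against its gene body, and SENP5 for a gene whose sum was set by 1 region. Each is the 250 bases before a RefSeq start (GRCh38.p14), 5′ to 3′ on the gene's strand, with CG dinucleotides, the sites at which 5mC and 5hmC mostly occur, in capitals.
SLITRK3, chr3:165197110-165197359 (minus strand, 8 CG): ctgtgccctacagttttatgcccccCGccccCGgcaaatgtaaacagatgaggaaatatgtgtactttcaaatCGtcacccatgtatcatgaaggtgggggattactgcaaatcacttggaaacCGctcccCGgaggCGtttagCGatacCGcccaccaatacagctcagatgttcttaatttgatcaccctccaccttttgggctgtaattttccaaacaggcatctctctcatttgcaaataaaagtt
MED18, chr1:28328790-28329039 (plus strand, 18 CG): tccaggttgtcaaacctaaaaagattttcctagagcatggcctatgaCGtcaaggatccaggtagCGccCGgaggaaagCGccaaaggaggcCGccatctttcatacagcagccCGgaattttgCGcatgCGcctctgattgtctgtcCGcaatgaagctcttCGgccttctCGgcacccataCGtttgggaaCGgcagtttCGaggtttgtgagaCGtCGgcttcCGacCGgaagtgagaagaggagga
GNAT1, chr3:50191360-50191609 (plus strand, 5 CG): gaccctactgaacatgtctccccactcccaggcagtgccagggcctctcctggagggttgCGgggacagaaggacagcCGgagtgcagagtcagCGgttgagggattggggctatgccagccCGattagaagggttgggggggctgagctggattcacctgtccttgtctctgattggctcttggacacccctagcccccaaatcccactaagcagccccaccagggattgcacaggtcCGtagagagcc
ZNF660, chr3:44584714-44584963 (plus strand, 14 CG): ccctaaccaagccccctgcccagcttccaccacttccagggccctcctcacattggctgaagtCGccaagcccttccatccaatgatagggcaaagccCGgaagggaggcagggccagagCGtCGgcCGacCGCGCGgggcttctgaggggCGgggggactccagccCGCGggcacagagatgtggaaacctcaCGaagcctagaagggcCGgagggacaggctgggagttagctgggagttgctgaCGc
SENP5, chr3:196867670-196867919 (plus strand, 33 CG): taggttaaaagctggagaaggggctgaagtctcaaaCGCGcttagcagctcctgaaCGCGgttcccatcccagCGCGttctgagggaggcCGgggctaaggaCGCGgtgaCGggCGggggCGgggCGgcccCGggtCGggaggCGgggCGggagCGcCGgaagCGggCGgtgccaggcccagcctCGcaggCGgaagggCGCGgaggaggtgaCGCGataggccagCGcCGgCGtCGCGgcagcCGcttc
Over 35116 such windows of RefSeq starts, 93.9% held at least 1 CG and the median was 11. The SENP5 window held more CG than 91.9% of them and the GNAT1 window more than 34.3%. RefSeq lists 2 starts for SLITRK3, and the one farther upstream is shown. The regions below are in hg19, so window and region were not overlaid, and a region's distance is the one in the deposited table. By that distance the nearest regions before the starts of GNAT1, ZNF660 and SENP5 lay 444, 457 and 528 bases away, farther than the 250 bases shown. Which SLITRK3 start its distance refers to was not checked.

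In SLITRK3, the deposited region 132 bases before the start (chr3:164914601-164915000, hg19) stood at 0.966 to 1.06 region CPM in undifferentiated and 2.85 to 3.40 in differentiated libraries. Its log2 fold change was 1.58 (SE 0.208, edgeR adjusted p = 1.91e-07). At MED18, the region that reached the start (chr1:28655601-28656000) went the other way, from 1.51 to 1.78 down to 0.564 to 1.07 region CPM. In GNAT1 the region 444 bases before the start fell by 1.20 on the log2 scale (SE 0.239, edgeR adjusted p = 0.000106). The 3 libraries of each state did not overlap at any of these regions, in genes that were chosen for states lying apart.

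The libraries held 13010267 to 33693880 counts in regions, with undifferentiated replicate 1 and differentiated replicate 3 the deepest. Regions at genes held 44.63 to 45.57% of the counts in undifferentiated libraries and 38.82 to 41.8% in differentiated ones. The 100 strongest regions of the genome held 16.76 to 17.98% and 21.33 to 25.68%. The scaling chosen therefore moved every gene: the median log2 fold change over all 20404 genes was 0.01 with TMM on gene sums, -0.19 with plain library totals and -0.33 with TMM on the strongest 10% of regions by count per kb. Directions are given against the median gene, and an absolute gain or loss of 5hmC per cell was not measured.

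Differentiation was accompanied by changes of 5hmC in both directions at a large share of genes, and most of these changes were small. In edgeR (quasi-likelihood test, p-values adjusted by Benjamini and Hochberg over all genes), 5251 genes were higher in differentiated cells and 5271 were lower, 51.6% of the 20404 tested (25.7% and 25.8%). Among the genes with 3 or more regions, 3713 were higher and 4044 lower, 53.8% of 14406 (25.8% and 28.1%). In 59.5% of those 14406 genes the 3 libraries of one state all lay above the 3 of the other. The median size of a called change was 0.34 on the log2 scale. Only 537 called genes reached 0.5 and 818 reached -0.5, while 3 lay at or beyond 1 in each direction. The even split rests on the scaling: plain library totals gave 911 higher and 6681 lower among genes with 3 or more regions, and TMM on the strongest regions gave 147 and 8077.

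**Figure D1:**
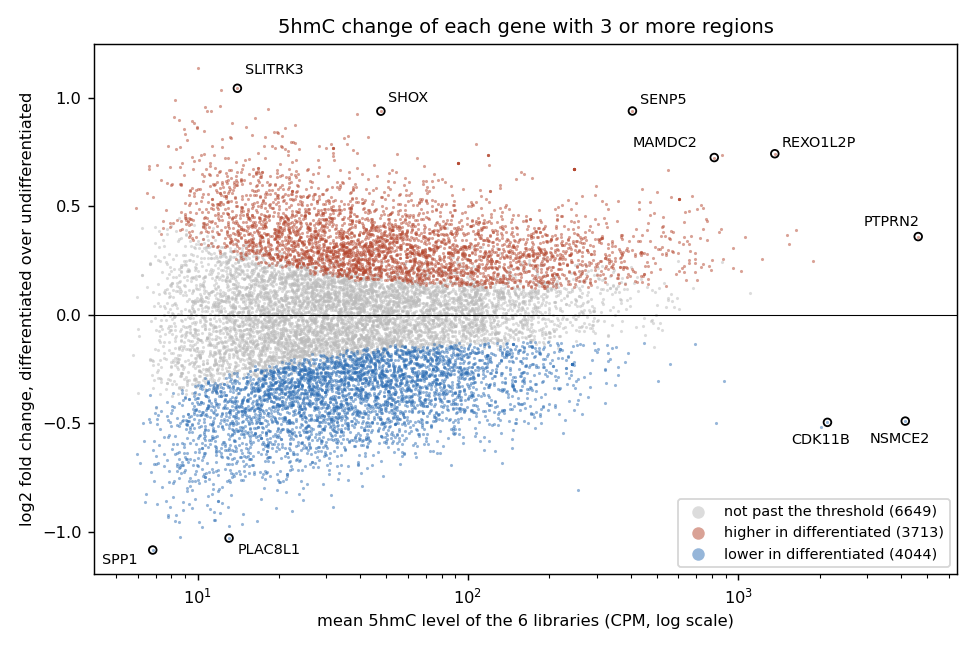
Each point is 1 of the 14406 genes with 3 or more regions; the horizontal axis is its mean 5hmC level over the 6 libraries (CPM, log scale) and the vertical axis its log2 fold change. The 3713 genes called higher and the 4044 called lower lie mostly within 0.5 of 0, and the strongest genes, such as PTPRN2 and NSMCE2, changed less than SLITRK3 or SPP1.

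The 3 genes that rose beyond 1 were an uncharacterised locus, LOC100507254, and 2 genes on chromosome 3. SLITRK3 (chr3:164904801-164915000), a transmembrane protein that organises inhibitory synapses, had CPM of 9.46, 9.72 and 8.40 in undifferentiated replicates 1, 2 and 3 and 16.7, 19.2 and 20.7 in differentiated ones. Every differentiated library was above every undifferentiated one, as the choice of these genes required. The log2 fold change was 1.04 (SE 0.117, edgeR adjusted p = 3.295e-05), and all 4 regions of the gene rose singly. BCHE (chr3:165508401-165534600), butyrylcholinesterase, had 7.67, 8.97 and 7.22 CPM before and 17.0, 16.9 and 15.5 CPM after, a log2 fold change of 1.03 (SE 0.120, edgeR adjusted p = 3.68e-05), and its 3 regions all rose. LOC100507254 (chr6:132465201-132477400) went from 6.08 ± 1.24 to 14.0 ± 1.72 CPM (SD, n = 3 each), and 4 of its 4 regions rose.

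Of the other 9 among the 12 largest rises, 8 had no region called lower, and the ninth, SENP5, is described separately because 1 region held most of its counts. HOXC9 (chr12:54389601-54396000), a homeobox factor of axial patterning, went from 8.08 ± 1.08 to 16.1 ± 1.40 CPM (SD, n = 3 each), a log2 fold change of 0.96 (SE 0.128). HEPACAM2, an immunoglobulin-family adhesion molecule, had 12.3, 13.6 and 11.7 CPM before and 26.3, 21.8 and 23.8 CPM after. SHOX, a homeobox gene of the pseudoautosomal region, went from 32.2 ± 2.65 to 63.2 ± 6.86 CPM with 6 of 6 regions higher. Because that region is shared by X and Y, its reads could be placed on either copy. The 6 regions of SHOX were listed on more than 1 chromosome. They may hold the same sequence more than once, so they cannot be taken as 6 separate regions. C10orf128 (log2 fold change 0.99), PVRL3-AS1 (0.96), CCDC122 (0.94), GPR12, an orphan receptor (0.94), and LOC100128505 (0.92) were the others. Over the 12 genes, SENP5 included, 40 of 54 regions were called higher and 6 lower, all 6 of them in SENP5. PVRL3-AS1 is antisense to PVRL3, and capture of double-stranded DNA cannot tell a gene from its antisense partner.

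The largest falls were of other kinds of gene. SPP1 (chr4:88892001-88900600), osteopontin, a secreted phosphoprotein made by macrophages and osteoblasts, had 9.28, 7.37 and 11.4 CPM in undifferentiated and 3.76, 4.47 and 4.69 in differentiated libraries. Its log2 fold change was -1.08 (SE 0.183, edgeR adjusted p = 0.000403), and the states did not overlap, as the choice of these genes required. MED18 (chr1:28652401-28657000), a subunit of the Mediator complex that links activators to RNA polymerase II, had 14.4, 13.8 and 12.99 CPM before and 6.79, 7.77 and 6.87 after. That change of -0.98 (SE 0.123, edgeR adjusted p = 5.87e-05) was carried by all 3 of its regions. GNAT1 (chr3:50224601-50235400), the rod photoreceptor transducin, fell by 1.02 on the log2 scale (SE 0.181) from 11.2 ± 0.699 to 6.01 ± 1.97 CPM (SD, n = 3 each), and it stood at -0.733 (edgeR adjusted p = 0.053) when only regions inside the gene were counted.

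Several of the other falls were at genes that most cells use. OGT (chrX:70769001-70790200), the enzyme that adds O-linked N-acetylglucosamine to proteins and a known partner of TET proteins, went from 11.2, 10.4 and 11.3 CPM to 5.10, 5.63 and 6.05. CDK7, the kinase of transcription factor TFIIH, went from 11.1 ± 1.96 to 6.00 ± 1.20 CPM (SD, n = 3 each). COIL, the scaffold of Cajal bodies, went from 17.5 ± 1.58 to 8.68 ± 1.13 CPM, with 4 of 5 regions lower. SAR1B, a GTPase of COPII vesicles, fell by 0.95 on the log2 scale. PEX11A, a peroxisome factor, fell by 0.95 as well. TOR1AIP2, an activator of torsins in the endoplasmic reticulum, fell by 0.95. HPS4, needed for lysosome-related organelles, fell by 0.94. PLAC8L1 (-1.03) and LOC100130357 (-0.96) completed the list. Together the 12 genes had 42 regions, and 38 of them fell singly while none rose.

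**Figure D2:**
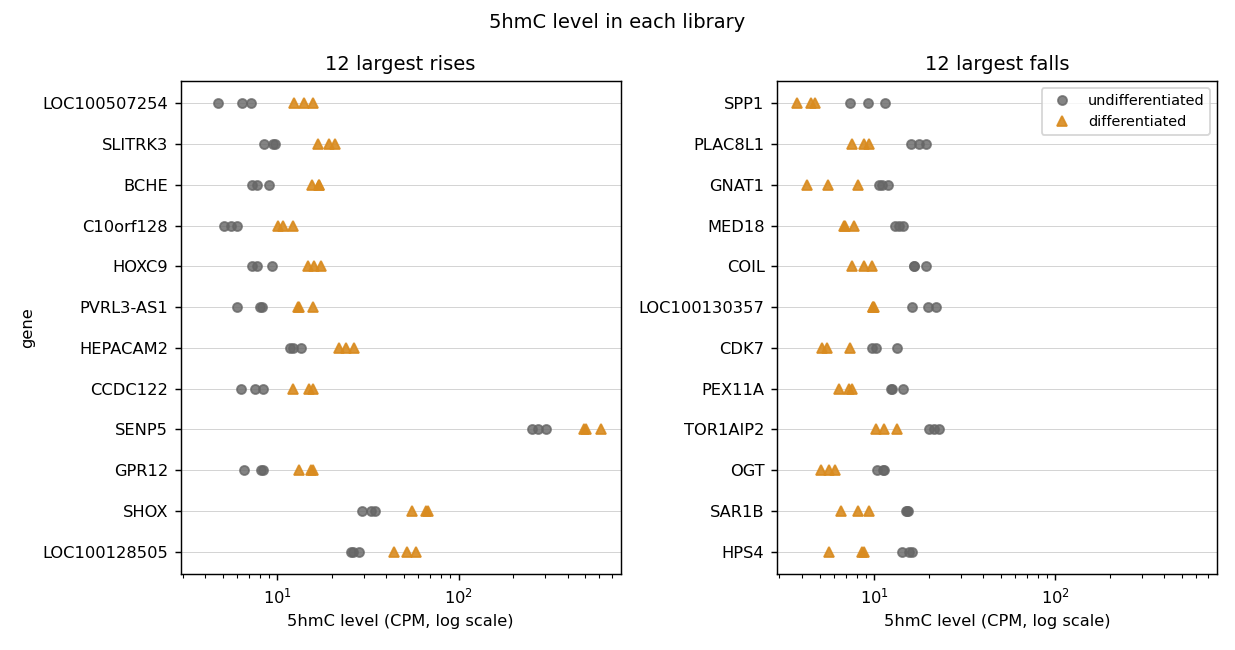
Points are the 5hmC levels (CPM, log scale) of the 12 largest rises (left) and 12 largest falls (right) in each library, circles for undifferentiated and triangles for differentiated. In each gene the 3 libraries of one state lie apart from the 3 of the other, as the choice of these genes required, and SENP5 at 254 to 610 CPM stands well above the rest.

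In CPM rather than in ratio, the 4 largest gains were at PTPRN2, REXO1L2P, CDH4 and MAMDC2, and PTPRN2 and CDH4 are long genes with over 100 regions each. PTPRN2, a phosphatase-like protein of secretory granules, has 172 regions over chr7:157336401-158375800 and rose from 4056 ± 302 to 5210 ± 892 CPM (SD, n = 3 each), with 88 regions higher and 6 lower. CDH4, the R-cadherin gene, rose from 1418 ± 67.1 to 1862 ± 301 CPM with 61 of its 116 regions higher and 9 lower. Neither passed the threshold under TMM on the strongest regions (log2 fold changes of 0.00070 and 0.03). REXO1L2P rose from 1022 ± 53.8 to 1710 ± 43.8 CPM, and REXO1L1, which rose from 656 ± 28.6 to 1093 ± 37.7 CPM, was not ranked apart because it shares regions with it. They belong to a multicopy family on chromosome 8 whose reads may be divided among copies, so the gene of origin is uncertain.

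In the 4 genes with the largest CPM losses, once SLC35E2B was set aside for sharing regions with CDK11B, most of the counts lay in 1 region. In NSMCE2, a SUMO ligase of the SMC5/6 complex, 98.32% of the counts lay in 1 region of 218400 bases (chr8:126224401-126442800), and the gene fell from 4847 ± 109 to 3453 ± 436 CPM (SD, n = 3 each). Without that region its log2 fold change was 0.12 instead of -0.49. A segment of this chromosome arm is known to be amplified in HL-60, and with no input library used here, copy number and 5hmC cannot be told apart. CDK11B, a cyclin-dependent kinase of splicing, fell from 2502 ± 222 to 1776 ± 257 CPM with 89.49% of its counts in 1 region that it shares with SLC35E2B, which went from 2378 ± 220 to 1663 ± 257 CPM. Without shared regions CDK11B stood at -0.139 (edgeR adjusted p = 0.061). SSU72, a phosphatase of the RNA polymerase II tail, fell by 0.50 on the log2 scale with 82.2% in 1 region. INADL, a scaffold of tight junctions, fell by 0.31 (SE 0.0707) with 67.49% in 1 region and 29 of 75 regions lower. None of these 4 strongest regions was called singly, with edgeR adjusted p from 0.087 to 0.25. Per kb of region in undifferentiated cells, CDK11B stood at 80.2 CPM and SSU72 at 67.4, against a median of 5.78 for called-lower genes.

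SENP5, a protease that removes SUMO, showed how far 1 region can set a gene's value. Its 13 regions over chr3:196593401-196660200 summed to 275, 305 and 254 CPM in undifferentiated and 490, 610 and 503 in differentiated libraries, a log2 fold change of 0.94 (SE 0.0827, edgeR adjusted p = 1.735e-05). A region of 400 bases (chr3:196625601-196626000) held 86.12% of the counts and rose by 1.19, while 6 of the other 12 fell and none of those rose. Without it the gene's log2 fold change was -0.38 (SE 0.0584, edgeR adjusted p = 1.20e-05), which is a call in the opposite direction. The region 528 bases before the start also fell, from 4.23, 4.29 and 4.53 region CPM to 2.25, 3.22 and 2.47. Per kb of region in undifferentiated cells, SENP5 stood at 26.7 CPM and MAMDC2 at 52.1. The median was 5.69 for called-higher genes with 3 or more regions. Whether the reads of such strong regions map to 1 place only was not tested.

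Such cases were few among the ranked genes. When each gene was taken without its strongest region, 97.41% of the 3713 called-higher genes kept a positive value and 81.01% were still called higher. Of the 4044 called-lower genes, 3963 kept a negative value and 78.39% were still called lower. A call in the opposite direction was seen for 11 of the former and 9 of the latter, among them INPP1, an inositol phosphatase (from 0.50 to -0.58), TTC37, a subunit of the SKI RNA-decay complex (from -0.43 to 0.51), and PTCHD2 (from -0.29 to 0.40). These 3 were picked after their values were seen. MAMDC2, with 94.73% of its counts in 1 region, kept its direction, at 0.72 with that region and 0.50 without.

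Many called genes held regions that went opposite ways, although such regions were a minority of the regions in these genes. Over the genome 50.3% of 327901 regions were called by edgeR (27.0% higher and 23.3% lower), as were 49.3% of the regions at genes (24.2% higher and 25.0% lower). Of the called-higher genes with 3 or more regions, 53.89% held at least 1 region that was called lower, and of the called-lower genes 43.74% held 1 called higher. Called-higher genes had 23542 regions higher and 6443 lower of 56124, and called-lower genes 20657 lower and 3464 higher of 46983. In both groups the opposite regions were a smaller share than over all regions at genes. The share of genes with at least 1 opposite region grows with the number of regions, whose median was 8 in both groups. A gene's regions are part of its sum, so these counts describe the spread inside genes and are not a separate test.

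The genes with the most regions called in both directions were RBFOX1, CNTNAP2, MACROD2 and DLG2, a choice by number that favours genes with many regions. RBFOX1, a splicing regulator of neurons, had 82 regions higher and 35 lower of 247 over chr16:6068001-7755800. CNTNAP2, a contactin-associated adhesion protein, had 77 higher and 34 lower of 229. DLG2, a scaffold of the postsynaptic density, had 70 and 33 of 184, and MACROD2, which removes ADP-ribose from proteins, had 65 and 34 of 174. As sums, RBFOX1 stood at 1337, 1330 and 1445 CPM before and 1618, 1982 and 1553 CPM after, and MACROD2 at 625, 632 and 631 before and 732, 774 and 751 after. The libraries of the states were apart in all 4 genes, as the choice of these genes required. The log2 fold changes were 0.32 (SE 0.0788) in RBFOX1 and 0.26 (SE 0.0492) in MACROD2, against 0.20 in CNTNAP2 and in DLG2. All 4 turned to values from -0.15 to -0.03 under TMM on the strongest regions, and CNTNAP2 stood at 0.19 (edgeR adjusted p = 0.0591) without undifferentiated replicate 1.

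**Figure D3:**
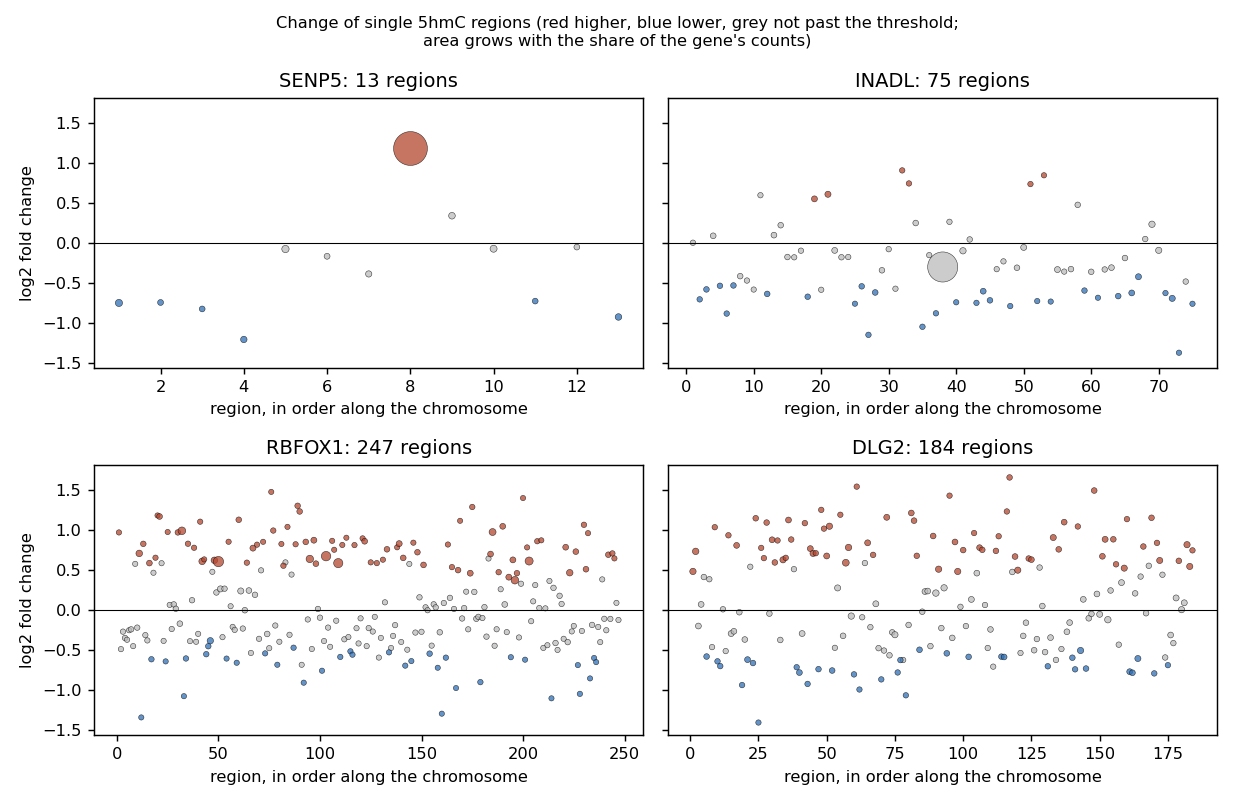
Each point is 1 region of a gene, in order along the chromosome, with its log2 fold change on the vertical axis and an area that grows with its share of the gene's counts; red was called higher, blue lower and grey neither. In SENP5 a single region with 86.12% of the counts lies above 0 while 6 lie below, and in RBFOX1 and DLG2 both colours run the length of the gene.

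No test was made across classes of genes by number of regions. Of the 361 genes with 51 or more regions, 55.12% were called higher and 13.57% lower, with a median log2 fold change of 0.16. Among genes with 11 to 20 regions, 23.88% were higher and 35.0% lower. At the edge of the ranking, genes with 2 regions had a median of 0.05 and those with 3 to 5 regions 0.01. Counts grow with the number of regions, so the power to call a gene grows with it as well. Genes with at least 1 region in a CpG island were called higher in 34.19% and lower in 18.17% of 3077 cases, against 23.49% and 30.76% of the 11329 without one.

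The promoter part and the body of a gene did not always move together. The test took genes with regions in both parts. Regions that counted as both for a gene were left out, as were genes with low counts in either part. In the 10194 genes left, edgeR's test of the difference between the 2 changes called 3449 (33.8%). The promoter part was higher than the body in 1534 (15.0%) and lower in 1915 (18.8%). The signs of the 2 changes were opposite in 39.77% of these genes. That share takes in genes whether or not they were called, and the signs depend on the scaling. Across the genes the 2 changes had a Spearman correlation of 0.23, a description, since both parts share the 6 libraries. Without undifferentiated replicate 1 there were 2128 calls, and without differentiated replicate 3 there were 2288. These were the deepest libraries. Without differentiated replicate 1 there were 2476 calls, and without differentiated replicate 2, the shallowest, 3716. Whether depth set these counts was not tested. With the promoter part cut to 2000 bases, 1800 of 5659 genes were called.

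SCG3, secretogranin III of secretory granules, had the largest positive difference, 2.13 (SE 0.319, edgeR adjusted p = 1.43e-06). Its promoter region rose from 1.43, 0.961 and 0.918 CPM to 2.55, 2.14 and 3.19, while its 4 body regions fell from 15.2, 16.4 and 12.5 CPM to 7.28, 7.19 and 8.84. The whole-gene sum fell by 0.57 on the log2 scale. The lowest promoter levels of SCG3, and of AKIP1 below, rest on few reads. AKIP1, which binds protein kinase A, showed the same arrangement, with a promoter region at 1.31, 1.50 and 1.05 CPM before and 3.52, 2.91 and 3.26 after. ZNF660 and ZNF662, zinc finger genes on chromosome 3, were next. In ZNF660 the promoter region went from 1.49, 1.60 and 1.57 CPM to 3.15, 3.11 and 3.67, and the body from 9.52, 6.41 and 12.5 to 5.22, 4.27 and 6.19. The whole-gene change of ZNF660 did not pass the threshold (log2 fold change -0.30, edgeR adjusted p = 0.176). ZNF662 had 2 promoter regions that rose and 1 body region that fell, a difference of 1.93 (SE 0.339). The lowest levels of that body region also rest on few reads.

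The opposite arrangement, with the promoter part falling against the body, was largest in FAM46C and HSD17B7. FAM46C, a poly(A) polymerase of lymphoid cells, had a promoter region at 2.32, 2.35 and 1.31 CPM before and 0.971, 0.194 and 0.544 after. The difference was -2.32 (SE 0.434, edgeR adjusted p = 4.515e-05), and the lowest of these levels rest on few reads. In HSD17B7, a dehydrogenase of cholesterol and steroid synthesis, the promoter region fell from 2.92, 3.84 and 4.07 CPM to 1.70, 1.75 and 1.22. Its 2 body regions rose from 5.12, 4.38 and 3.28 to 7.89, 9.13 and 10.1. ZNF202, a zinc finger repressor, had a difference of -2.03 (SE 0.282), and the pseudogene TPTE2P6 had -1.89 (SE 0.301), which is uncertain because related copies exist. The promoter region of TPTE2P6 was also low, at 0.971 to 1.09 CPM in differentiated libraries. All 8 kept their sign and call under each alternative that gave a value.

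Gene families were then taken by symbol, outside the signaling pathways, and read against the 25.7% higher and 25.8% lower over all genes. The medians that follow are differences from the median gene. The families are a choice, not a survey, and no test compared them. Of 67 cytosolic ribosomal protein genes, 31 were lower and 2 higher (median -0.37), and RPL24 fell from 16.5 ± 0.939 to 10.1 ± 1.76 CPM (SD, n = 3 each). Processed pseudogenes of ribosomal proteins are numerous, so reads may be divided among copies. Of 34 tRNA synthetase genes 23 were lower and 4 higher (-0.36), led by QARS, at 15.9, 17.3 and 17.2 CPM before and 10.3, 11.1 and 9.38 after, and EARS2. Of 51 translation initiation factors 21 were lower and 5 higher (-0.27), with EIF3G at 21.7 ± 1.12 before and 13.3 ± 1.37 CPM after.

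Among 62 splicing factor and hnRNP genes 38 were lower and 7 higher (median -0.32), with 22 and 5 without undifferentiated replicate 1, and SNRPA1, a protein of the U2 small nuclear ribonucleoprotein, fell by 0.72 on the log2 scale. All 14 called nuclear pore genes of 21 were lower (-0.28). NUP133, a scaffold nucleoporin, had 50.8, 50.7 and 51.6 CPM before and 29.7, 31.7 and 28.3 after, with 10 of 12 regions lower, a log2 fold change of -0.79 (SE 0.0644, edgeR adjusted p = 1.61e-05). RNA polymerase II and Mediator genes were lower in 12 of 38 cases and higher in 2 (-0.14). Histone lysine methyltransferase and demethylase genes were lower in 19 of 40 and higher in 2 (-0.16), with SETD8, the enzyme for histone H4 lysine 20 monomethylation, falling by 0.64.

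Genes of protein turnover and energy metabolism were counted in the same way. All 18 called ubiquitin-conjugating enzyme genes of 32 were lower (median -0.31), with UBE2D2 at 38.8, 39.9 and 45.4 CPM before and 23.1, 28.9 and 23.9 after. Ubiquitin-specific protease genes were lower in 23 of 47 and higher in 4 (-0.17), and USP4 went from 93.6 ± 1.46 to 60.3 ± 3.65 CPM (SD, n = 3 each). Proteasome subunit genes were lower in 17 of 43 and higher in 4 (-0.18, and 11 and 1 without undifferentiated replicate 1), with PSMC3, an ATPase of the regulatory particle, falling by 0.67. Genes of oxidative phosphorylation were lower in 30 of 70 and higher in 12 (-0.23), led by ATP5L and COX5A. Mitochondrial ribosomal protein genes were closer to the background, with 19 of 67 lower and 14 higher, or 17 and 7 without undifferentiated replicate 1 (-0.17, and -0.04 without the strongest region of each gene).

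Receptor and channel families of excitable cells held more genes called higher than lower. No family was set beside genes with like numbers of regions. Over all genes with 51 or more regions, 55.12% were higher and 13.57% lower. Of 21 GABA receptor genes, 15 were higher and 1 lower (median 0.43). GABRG1, a gamma subunit of the inhibitory GABA-A receptor, rose from 14.3, 12.5 and 13.4 CPM to 25.4, 27.0 and 22.2, a log2 fold change of 0.84 (SE 0.103, edgeR adjusted p = 4.835e-05). All 18 called glutamate receptor genes of 26 were higher (0.24), and GRM8 had 31 of 57 regions higher and 5 lower. Of 90 potassium channel genes 55 were higher and 8 lower (0.24), with KCNS3 at 20.6, 19.97 and 20.1 CPM before and 29.1, 26.4 and 29.8 after. Glutamate and GABA receptors are the main receptors of fast excitation and inhibition in the brain.

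Matrix and adhesion genes were also counted. All 26 called collagen genes of 43 were higher (median 0.22), with COL1A2, a chain of type I collagen, going from 7.91, 7.80 and 6.43 CPM to 12.4, 10.9 and 12.9, and COL6A1 from 57.6 ± 3.76 to 86.5 ± 9.88 (SD, n = 3 each). Of 23 cadherins 13 were higher and 3 lower (0.19), and the 2 largest changes went opposite ways, CDH8 up by 0.52 and CDH3 down by 0.44 on the log2 scale. Keratin genes were higher in 16 of 51 and lower in 4 (0.20), and ADAM and ADAMTS protease genes in 17 and 6 of 39 (0.16, or 11 and 4 without undifferentiated replicate 1).

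These excesses are against the median gene, and the values against 0 depend on the scaling. Relative to the median gene, the GABA receptor median lay between 0.34 and 0.47 under all settings tried, the glutamate receptors between 0.21 and 0.31, the collagens between 0.19 and 0.26, and the potassium channels between 0.22 and 0.26. The ribosomal proteins lay between -0.48 and -0.34 and the tRNA synthetases between -0.39 and -0.27. With no reference to the median gene, TMM on the strongest regions put the potassium channels at -0.10, the glutamate receptors at -0.10 and the collagens at -0.11, with 1, 0 and 0 genes higher and 19, 5 and 10 lower. It put the GABA receptors at 0.08, with 1 gene higher and 3 lower. Under that scaling KCNS3, GRM8, COL1A2, COL6A1 and CDH8 did not pass the threshold, and GABRG1 did.

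Other families stayed near the background or were mixed. Solute carriers were higher in 96 and lower in 73 of 344 (median 0.03), and the 2 largest changes, the copper importer SLC31A1 and SLC16A6, were falls of 0.73 and 0.71 on the log2 scale. C2H2 zinc finger genes were lower in 173 and higher in 96 of 501 (-0.12), with ZNF142 going from 19.3 ± 1.02 to 10.1 ± 0.487 CPM (SD, n = 3 each). Kinesins were higher in 11 and lower in 13 of 41 (-0.08), chemokines in 6 and 8 of 29 (-0.04), and axonemal dynein heavy chains in 2 and 1 of 13 (-0.01). Rab GTPases were lower in 14 and higher in 10 of 59 (-0.10). Interleukins and their receptors were higher in 21 and lower in 10 of 71 (0.12), where IL21 fell by 0.70 and IL1RN, the interleukin 1 receptor antagonist, rose by 0.57. Tripartite motif genes were higher in 13 and lower in 11 of 58 (0.11), SOX and forkhead factors in 16 and 5 of 48 (0.12), and serpins in 10 and 5 of 33 (0.13, but -0.03 without the strongest region of each gene). Without undifferentiated replicate 1, solute carriers gave 68 higher and 46 lower, zinc finger genes 57 and 122, interleukins and their receptors 13 and 8, kinesins 9 and 8, tripartite motif genes 11 and 7, Rab GTPases 5 and 12, chemokines 3 and 5, SOX and forkhead factors 11 and 3, and dynein heavy chains 0 and 1.

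**Figure D4:**
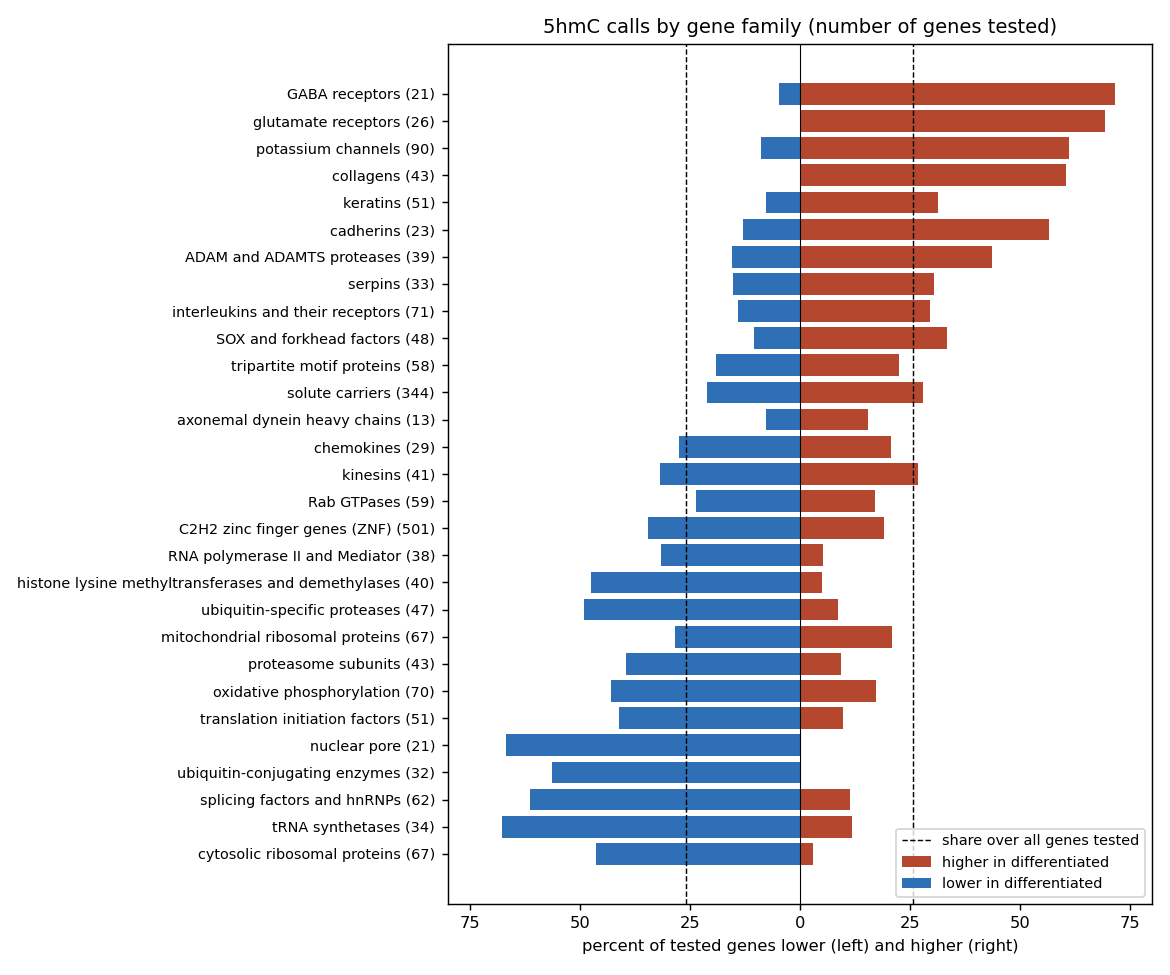
Bars give the percent of tested genes in each family shown called lower (left, blue) and higher (right, red) in differentiated cells with TMM on gene sums, and dashed lines give the shares over all genes, 25.8% lower and 25.7% higher. GABA receptors, glutamate receptors, potassium channels and collagens exceed the line on the right, and nuclear pore, tRNA synthetase and splicing genes exceed it on the left.

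Genes that mark blood cell types were read the same way. Of 22 mature neutrophil genes 7 were higher and 2 lower (median against all genes 0.15, but -0.01 without the strongest region of each gene). These calls depend on the setting: 1 was higher and 1 lower without undifferentiated replicate 1, 1 and 5 with plain library totals, and 0 and 7 with TMM on the strongest regions. ITGAM, which encodes the CD11b used for the sort, had 159, 173 and 164 CPM before and 189, 199 and 172 after, a log2 fold change of 0.17 (SE 0.0609, edgeR adjusted p = 0.0330), with differentiated replicate 3 below undifferentiated replicate 2. Of 10 primary granule and promyelocyte genes 2 were higher and 3 lower (-0.02), or 0 and 5 with TMM on the strongest regions, and MPO, the myeloperoxidase gene, went from 16.7, 13.1 and 16.9 CPM to 9.46, 7.77 and 8.70. ELANE, neutrophil elastase, did not pass the threshold (log2 fold change -0.07).

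Markers of other lineages were called as well. Lymphoid genes were higher in 5 and lower in 0 of 14 (median against all genes 0.18), but higher in 0 and lower in 4 with TMM on the strongest regions, 0 and 3 with plain library totals, 3 and 2 with gene totals, and 4 and 3 without the strongest region of each gene. The B cell factor PAX5, called higher in the fit reported, went from 168 ± 1.04 to 206 ± 7.21 CPM (SD, n = 3 each). Monocyte and macrophage genes were higher in 5 and lower in 1 of 11 (0.14, but -0.07 without the strongest region of each gene), erythroid and megakaryocyte genes in 5 and 1 of 14 (0.10), and eosinophil and basophil genes in 4 and 2 of 10 (0.03). With TMM on the strongest regions these 3 lists gave 0 and 3, 3 and 5, and 0 and 5. Without undifferentiated replicate 1 they gave 2 and 1, 5 and 0, and 2 and 2, and the lymphoid list 3 and 0. ITGAM, MPO, ELANE and PAX5 were named because they are textbook markers, with their values known.

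Along the genome, changes were shared with neighbours to some degree. For each ranked gene, the median log2 change of regions outside it within 500 kb on each side was 0.06 for called-higher genes and -0.25 for called-lower genes, against -0.12 over 14362 genes, on the scaling of the region test. That neighbourhood median was above 0 for 57.23% of called-higher and 14.75% of called-lower genes. Across genes the Spearman correlation with the gene's own change was 0.43, a description over genes that share neighbours and libraries. Around MED18 it was -0.49 and around C10orf128 0.50, the same direction as the gene, while around SENP5 it was -0.38 and around HPS4 0.25, opposite to the gene.

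Shares of calls are given per chromosome, with no test between chromosomes. On X, 41.3% of 661 genes were higher and 14.52% lower, with a median log2 fold change of 0.23, and on chromosome 18 the shares were 40.82% and 18.35% of 316 genes (median 0.11). On chromosome 17, 14.87% of 1150 genes were higher and 35.39% lower (median -0.10), and chromosomes 22 and 16 were next with medians of -0.07 each. OGT was a gene of the X chromosome that went against its chromosome, and COIL on chromosome 17 went with it. Without an input library, a change in chromosome copies between the sorted populations and a change in 5hmC cannot be told apart.

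**Figure D5:**
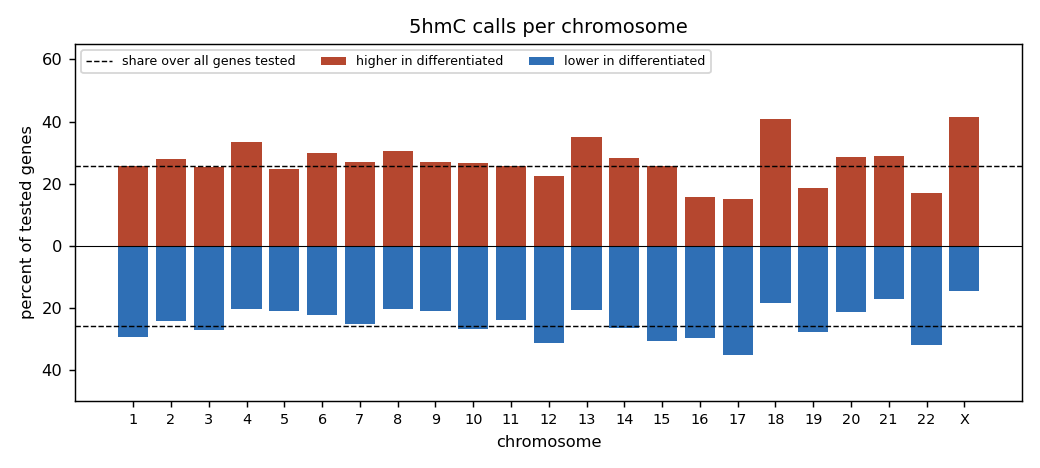
Bars give the percent of tested genes on each chromosome called higher (up, red) and lower (down, blue) with TMM on gene sums, and dashed lines the shares over all genes tested. X and 18 reach 41.3% and 40.82% higher, and 17 reaches 35.39% lower.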

How the data were processed

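Per the labels' protocols, sheared genomic DNA was ligated to adapters and captured with antibodies to 5hmC or 5mC. Per the submitters' processing notes, reads were handled with BWA, SAMtools 0.1.18, bedtools 2.17.0, SICER 1.1 and edgeR 2.11 on hg19. Their settings are not given in the sources used here. What was deposited is raw read counts per region and library, with the authors' log2 fold changes and p-values, which were used only for the direction of listed 5mC regions. Of 327949 5hmC regions, 18 had a blank count cell and were left out. Date-like names, listed at 786 regions, were skipped when counts were summed, so no gene was counted under such a name. No input library or hg19 annotation was used here.

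Counts were summed per symbol over regions at distance 0 or up to 5000 bases before a start, so a region near several genes counts in each. edgeR 4.0.16 (R 4.3.3) was fitted to the 6 libraries with filterByExpr (which removed no gene), TMM and the quasi-likelihood test, adjusted over all genes at 0.05. Regions, and promoter against body (library and compartment terms), were fitted likewise. For promoter against body, regions that were both for a gene were left out, and a count filter was applied to each part. The code was tested on simulated data. SE is the fold change over the square root of F. Totals ranged from 13010267 to 33693880 counts per library.

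Named genes, with states apart in CPM, 3 or more regions and a call, were the 12 largest rises and falls, the 4 largest each way in CPM, the 4 with most regions both ways, the 4 largest each way for promoter against body, and up to 2 per family. Some members are not reported here. The members and lists were chosen with earlier results of these data known. The alternatives were other scalings, DESeq2 1.42.0, filters, distances, single-symbol or body regions, thinning, a replicate block and leaving out libraries. Chosen after seeing the data were gene totals, blanks as 0, leaving out the deepest library of each state together, and leaving out each gene's strongest region. RefSeq windows (GRCh38.p14) were matched by symbol.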

Additional observations from a re-analysis of the deposited data

How the results depend on the processing

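Of the 95 named genes, 61 kept their direction and side of the threshold under every alternative run, and 34 did not. Without undifferentiated replicate 1 and differentiated replicate 3, the deepest libraries, 6342 genes were called (3169 higher, 3173 lower), and 5158 of those with 3 or more regions (2439 and 2719). Leaving out 1 library at a time gave 7436 to 11144 genes, 5723 to 8193 with 3 or more regions, and 2128 (without undifferentiated replicate 1) to 3716 for promoter against body, with 2288 without differentiated replicate 3. Promoter against body gave 1882 with libraries thinned to the shallowest and 1800 with 2000 bases upstream. DESeq2 called 3854 higher and 3656 lower, and thinned libraries 4029 and 4024. Over all genes, plain library totals called 1591 higher and 8545 lower (15.7% higher), TMM on the strongest regions 421 and 10350 (3.91%), and gene totals 4339 and 5896 (42.4%), against 49.9% higher as reported. Of the 7757 calls in genes with 3 or more regions, 63.88% were also called under plain library totals and 54.03% under TMM on the strongest regions.

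Log2 fold changes that changed sign were those of SENP5 (-0.376) and NSMCE2 (0.123) without the strongest region, and of NSMCE2 with single-symbol regions (0.134). Under TMM on the strongest regions RBFOX1 (-0.0317), CNTNAP2 (-0.148), MACROD2 (-0.0891), DLG2 (-0.149) and DNAH9 (-0.0882) changed sign, as did CNTNAP2 (-0.00844) and DLG2 (-0.0101) under plain library totals. CCL19 turned positive with 2000 bases upstream (0.0343) and with body regions only (0.515). Medians against all genes changed sign without the strongest region for serpins (-0.0303), mature neutrophil genes (-0.00745) and monocyte and macrophage genes (-0.0658). Beyond what each alternative changes by construction, the cause was not tested.

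Same-numbered replicates of the states did not deviate together (correlations of -0.00698, -0.153 and -0.174 for numbers 1, 2 and 3). With 3 libraries per state, these values cannot show whether same-numbered samples were handled together. With the replicate block 8844 genes were called (4333 higher, 4511 lower), 6637 with 3 or more regions, and 2818 for promoter against body. Small changes at genes of low count are near the limit of this depth. Counting error and the spread of 3 cultures both enter the tests.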

Other observations

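Symbols that share the letters before the first digit were compared as a description over 105 such stems with 20 or more tested genes. The lowest medians were those of small nucleolar RNA genes (SNORA, -0.41, with 17 of 43 lower and 4 higher), large ribosomal proteins (RPL, -0.35, 23 of 57 lower and 5 higher) and histones (HIST, -0.32, 17 of 36 lower and 2 higher). The highest were those of the GAGE cancer-testis genes (0.46, 19 of 22 higher and none lower), keratin-associated proteins (KRTAP, 0.41, 22 of 45 higher and 3 lower) and FLJ clone names (0.25, 36 of 75 higher and 11 lower). GAGE genes are near-identical copies in tandem that may share reads and regions, so their counts are uncertain and not independent. Whether KRTAP genes share reads or regions was not checked, so their counts may not be independent either.

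The authors' deposited table of 5mC regions, a selected list of 65535, was read for direction at the genes with the largest 5hmC changes. It listed 16 regions at 10 of the 12 genes with the largest 5hmC falls, 14 of them lower in 5mC after differentiation and 2 higher. Of all regions in the authors' deposited table, 49.88% were lower, and 53.13% of those at genes were lower. At the 12 genes with the largest 5hmC rises the authors' deposited table listed 10 regions at 5 genes, 6 higher and 4 lower, and 5 of those 10 were at SENP5. SLITRK3, BCHE, HOXC9 and SPP1 had none in that list, which says nothing of their 5mC. With no input library used here, a change in copy number and a change in both marks cannot be told apart.

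The genes of the TET enzymes themselves carried 5hmC in each library. TET1 went from 176 ± 1.34 to 147 ± 3.17 CPM (SD, n = 3 each), a log2 fold change of -0.26 (SE 0.0488, edgeR adjusted p = 0.000730). TET2 went from 48.8 ± 2.05 to 41.6 ± 2.08 CPM (-0.24, edgeR adjusted p = 0.00687). TET3 did not pass the threshold (0.10, edgeR adjusted p = 0.101). TET genes were chosen for their role in making 5hmC, with their values known.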
